A study of Mus musculus with 6 samples.

Results

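The circadian clock genes Clock, Per1, Per2, Per3, Cry1, Cry2, Nr1d1, Nr1d2, Dbp and Ciart were followed in whole retina of Atrx knockout mice and their controls. The knockout mice carry a Cre transgene and a floxed copy of Atrx, the gene of a chromatin remodeller. Which retinal cells lost Atrx was not examined. A gene was taken as measured where a probe set of the array was annotated with its symbol alone. This held for 9 of the 10 genes, with 1 probe set each, out of 23521 such probe sets among 41345 in all; Per2 had none and is not analysed here. All 9 were bright enough to be tested, together with 15610 other genes, 15619 in total.

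Gene expression was measured on Affymetrix mouse gene arrays from total retinal RNA of male mice at postnatal day 17. The 3 knockout samples have the genotype Chx10Cre+/-;Atrx flox/y, and the 3 samples labelled wildtype are Cre-negative littermates, Chx10Cre-/-;Atrx flox/y, so that both groups carry the floxed allele on their only X chromosome. Every knockout mouse and no control mouse carries the Cre transgene, and its effect and the loss of Atrx cannot be told apart. Both retinas of a mouse went into 1 sample. By the series' design text, loss of amacrine and horizontal cells is at its peak at this age, and the comparison asks which genes differ then. The mice lived under 12-hour light and dark phases, and no source used here states the hour of dissection.

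The clock is a feedback loop of transcription that runs in nearly all mammalian cells, with a cycle of about a day. CLOCK and BMAL1 (the product of Arntl) bind E-boxes and switch on Per, Cry, Nr1d and Ciart genes, whose products then repress the same pair or, for the Nr1d genes, the Arntl gene. Dbp is an output gene that is switched on by the pair and in turn acts on D-boxes. The retina holds its own clock, which runs in several of its cell types and is set by light.

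None of the 9 clock genes differed between knockout and wildtype retina in limma's test (adjusted p from 0.365 to 0.899). Over all genes tested, 129 (0.826%) were called at an adjusted p under 0.05. Without adjustment 1 of the 9, Dbp, had a p under 0.05, a limit that 13.5% of all genes passed, 6.5% with a lower and 6.99% with a higher value in knockout. Log2 changes, knockout minus wildtype, ran from -0.17 for Dbp to 0.10 for Clock, with 6 of 9 below 0 against 49.1% of all genes. The median over the 9 genes was -0.09, and the median size without regard to sign was 0.10, the same to the second decimal as over all genes tested (0.098). The 95% intervals of the 9 changes lay between -0.37 (Cry2) and 0.31 (Clock), that is between 1.29-fold lower and 1.24-fold higher. These intervals are not adjusted for the number of genes.

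**Figure D1:**
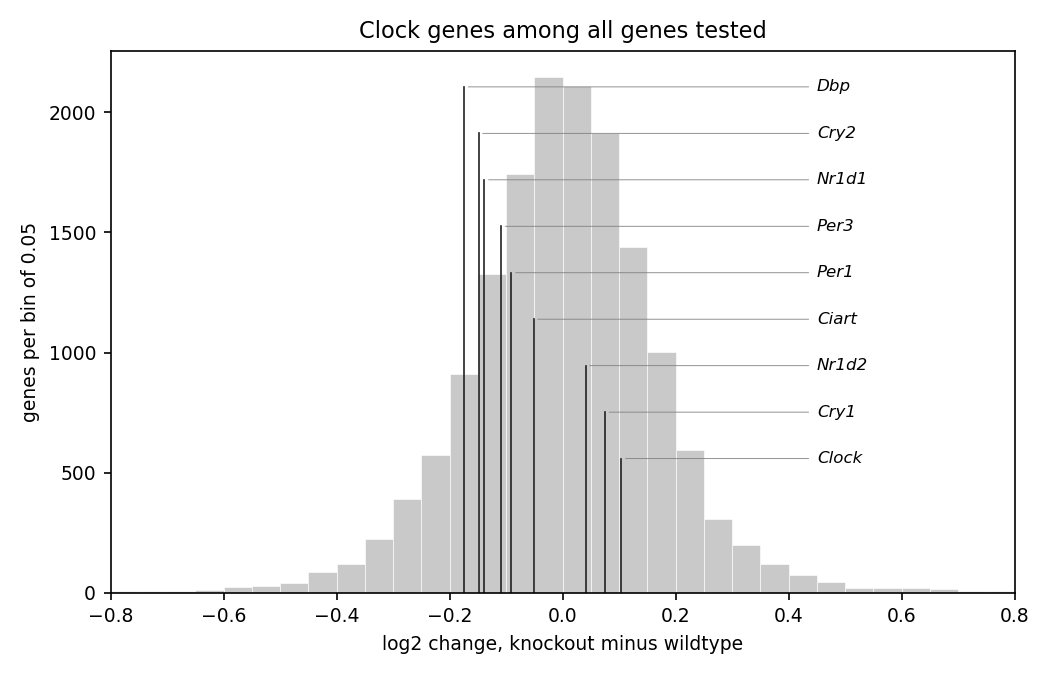
Histogram of the log2 change (x axis, knockout minus wildtype) of all 15619 genes tested, in bins of 0.05 (y axis, genes per bin); vertical lines mark the 9 clock genes, their heights set only for labelling. The clock genes lie between -0.17 (Dbp) and 0.10 (Clock), inside the range from -0.20 to 0.19 between the 10th and the 90th percentile of all genes.

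Atrx itself, the targeted gene, had log2 values of 8.42, 8.72 and 8.33 in knockout and 9.04, 8.86 and 9.17 in wildtype retina. The knockout values all lay below the wildtype values, with a change of -0.53 (SE 0.12, adjusted p = 0.115 in limma's test). Of the 17 alternatives, the intensity trend with robust spread alone took Atrx past the threshold (adjusted p = 0.0386 by limma). Which part of the gene its probe set covers was not examined. The lens list, 12 tested of 14 markers, averaged 10.32 in knockout 2 and 11.52 in wildtype 1, and 6.04 to 6.48 in the remaining 4 arrays, so lens RNA was high on 1 array of each group. Retinal markers were bright on all arrays, with a bipolar list mean (6 markers) from 8.64 to 8.82. The rod list (8 tested of 10) was slightly higher in knockout, with means from 11.57 to 11.61 against 11.46 to 11.54 in wildtype, 3 members below 0 and none called. The amacrine list was lower in knockout, where its mean ran from 7.43 to 7.73 against 8.01 to 8.13 in wildtype, with 10 of 10 tested members below 0 and 3 called. The horizontal cell list (5 tested of 6) ran from 7.08 to 7.39 in knockout and from 7.44 to 7.48 in wildtype, with 4 of 5 below 0 and none called. Beside these counts, 49.1% of all genes tested were below 0 and 0.826% were called. In whole retina, fewer cells of a type and less RNA per cell cannot be told apart. Pigment epithelium markers (10 tested of 11), which belong to the tissue behind the retina, ranged from 9.03 on knockout 1 to 10.12 on wildtype 2.

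Stretches of promoter are shown because they hold letters that match known motifs of clock factors. RefSeq promoter windows of GRCm38.p6 were available for all 9 measured genes, and the 250 bases before each start were searched on both strands for the E-box CACGTG, the related E′-box CACGTT, the D-box in its forms TTATGTAA and TTACGTAA, the core AGGTCA of the sites of ROR and REV-ERB receptors, and the cAMP response element TGACGTCA. Capitals in the lines that follow mark each match, and each stretch runs 5′ to 3′ on the gene's strand.
Ciart, chr3:95882247-95882364, minus strand: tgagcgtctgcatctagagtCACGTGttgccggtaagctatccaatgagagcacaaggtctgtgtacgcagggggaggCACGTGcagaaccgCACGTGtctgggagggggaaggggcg
Cry1, chr10:85185089-85185153, minus strand: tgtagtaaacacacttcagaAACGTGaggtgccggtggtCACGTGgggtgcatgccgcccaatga
Per1, chr11:69098763-69098837, plus strand: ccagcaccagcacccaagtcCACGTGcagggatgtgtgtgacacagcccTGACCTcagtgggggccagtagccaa
Cry2, chr2:92434210-92434255, minus strand: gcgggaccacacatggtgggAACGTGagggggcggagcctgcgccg
Nr1d1, chr11:98775380-98775425, minus strand: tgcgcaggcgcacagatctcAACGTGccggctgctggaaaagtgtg
Per3, chr4:151044796-151044890, minus strand: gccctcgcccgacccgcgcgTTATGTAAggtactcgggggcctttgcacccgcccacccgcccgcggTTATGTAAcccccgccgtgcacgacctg

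The E-box CACGTG stood in the windows of 3 of 9 genes, Ciart, Cry1 and Per1 (1 of its 2 windows), and in 6.02% of all 32851 windows of that length. A gene was counted if any of its windows held the motif, whereas the shares are per window. Clock had 3 windows, Per1 had 2 and each other gene had 1. Ciart held 3 copies, starting 116, 58 and 44 bases before its start. The E′-box, printed above as AACGTG on the opposite strand, stood in Cry1, Cry2 and Nr1d1 and in 3.85% of all windows. Per3 alone held the D-box, at 205 and 158 bases before its start, in the form TTATGTAA, and 0.931% of all windows hold either form. AGGTCA stood in 1 of 2 windows of Per1, in Nr1d2 and in 1 of 3 windows of Clock, and in 14% of all windows. No window of the 9 genes held TGACGTCA, which 1.55% of all windows hold. No match of 1 motif overlapped a match of another. For Dbp none of these letters were found in this window. Each match is a description of the sequence and shows no binding.

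Clock, the positive arm of the loop, had log2 values of 10.99, 10.99 and 10.78 in knockout 1, 2 and 3 and of 10.80, 10.75 and 10.89 in wildtype 1, 2 and 3. Knockout 1 and 2 were the highest of the 6 arrays, while knockout 3 was below wildtype 1 and 3, so the groups overlapped. The group means were 10.92 ± 0.12 and 10.81 ± 0.073 (SD, n = 3 each), a change of 0.10 (SE 0.089, 95% interval -0.10 to 0.31, adjusted p = 0.648 by limma). The exact permutation p was 0.3, where 0.1 is the smallest that 3 arrays against 3 allow.

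Per1, a repressor of the loop that light also induces, had log2 values of 8.63, 8.76 and 8.65 in knockout and of 8.74, 8.75 and 8.81 in wildtype. Knockout 1 and 3 lay below all wildtype arrays and knockout 2 among them. The change was -0.09 (SE 0.075, interval -0.26 to 0.08, adjusted p = 0.636 by limma).

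Per3, a relative of Per1 with a lesser part in keeping the rhythm, was lower in knockout on every array. Its log2 values were 7.97, 8.04 and 8.07 in knockout and 8.07, 8.16 and 8.17 in wildtype. The groups touched without overlap, with knockout 3 (8.0686) just under wildtype 1 (8.0724). The change was -0.11 (SE 0.074, interval -0.28 to 0.06, adjusted p = 0.562 by limma).

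The cryptochromes, which repress CLOCK and BMAL1 together with the PER proteins, had changes of opposite sign. Cry1 had log2 values of 7.94, 8.03 and 7.79 in knockout and of 7.82, 7.96 and 7.77 in wildtype, and the groups were interleaved (change 0.07, SE 0.093, adjusted p = 0.765 by limma). The Cry1 change was 0.019 without knockout 2 and 0.005 without both lens-rich arrays. Cry2 had log2 values of 7.97, 8.04 and 7.74 in knockout and of 8.10, 8.11 and 7.99 in wildtype. Its change of -0.15 (SE 0.097, interval -0.37 to 0.07, adjusted p = 0.546 by limma) rested mostly on knockout 3, the lowest array; without that array the change was -0.06. Knockout 2 was the highest and knockout 3 the lowest knockout array for both genes.

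Ciart, which encodes a repressor that acts on CLOCK and BMAL1, varied more among knockout than among wildtype arrays. Its log2 values were 7.63, 7.20 and 7.43 in knockout and 7.40, 7.52 and 7.50 in wildtype, with the highest and the lowest of the 6 arrays both in knockout. The SD was 0.22 in knockout and 0.065 in wildtype, a difference in spread that was not tested. The change was -0.05 (SE 0.11, interval -0.31 to 0.21, adjusted p = 0.880 by limma), and its sign turned without knockout 2, the lens-rich knockout array (0.06).

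Nr1d1 and Nr1d2 encode the receptors REV-ERB alpha and beta, which repress Arntl and are bound by heme. Nr1d1 had log2 values of 9.30, 9.51 and 9.26 in knockout and of 9.39, 9.58 and 9.51 in wildtype. Knockout 1 and 3 were the lowest arrays, while knockout 2 lay between the wildtype values (change -0.14, SE 0.096, interval -0.36 to 0.08, adjusted p = 0.571 by limma). Without both lens-rich arrays, knockout 2 and wildtype 1, the Nr1d1 change was -0.27 and its adjusted p 0.326 by limma.
Nr1d2 had log2 values of 8.95, 9.17 and 8.87 in knockout and of 8.89, 8.90 and 9.08 in wildtype, with the groups interleaved (change 0.04, SE 0.10, adjusted p = 0.899 by limma). The sign for Nr1d2 turned without knockout 2 (-0.05) and without both lens-rich arrays (-0.08).

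Dbp, an activator of the PAR bZIP family and a direct output of the clock, showed the clearest separation of the 9. Its log2 values were 10.55, 10.46 and 10.56 in knockout and 10.65, 10.76 and 10.67 in wildtype. Every knockout array was below every wildtype array, by 0.10 between the nearest pair, knockout 3 and wildtype 1. The means were 10.52 ± 0.054 and 10.70 ± 0.059 (SD, n = 3 each), which is 1.13-fold lower in knockout. The change of -0.17 (SE 0.075, interval -0.35 to -0.0022) had an unadjusted p of 0.0478 and an adjusted p of 0.365 in limma's test, and an exact permutation p of 0.1. A change of this size or larger, in either direction, was measured for 24.8% of all genes tested. Dbp lay lower in knockout whichever array was left out, from -0.20 to -0.14.

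In all, 2 of the 9 clock genes, Dbp and Per3, had knockout values wholly below the wildtype values, against 9.58% of all genes tested; none had them wholly above, against 10.7%. In either direction the groups did not overlap for 20.3% of all genes. Of the marker lists given above, the amacrine and horizontal cell lists were likewise lower, and the rod list higher, on every knockout array than on any wildtype array; their part in the values of Dbp and Per3 was not tested.

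**Figure D2:**
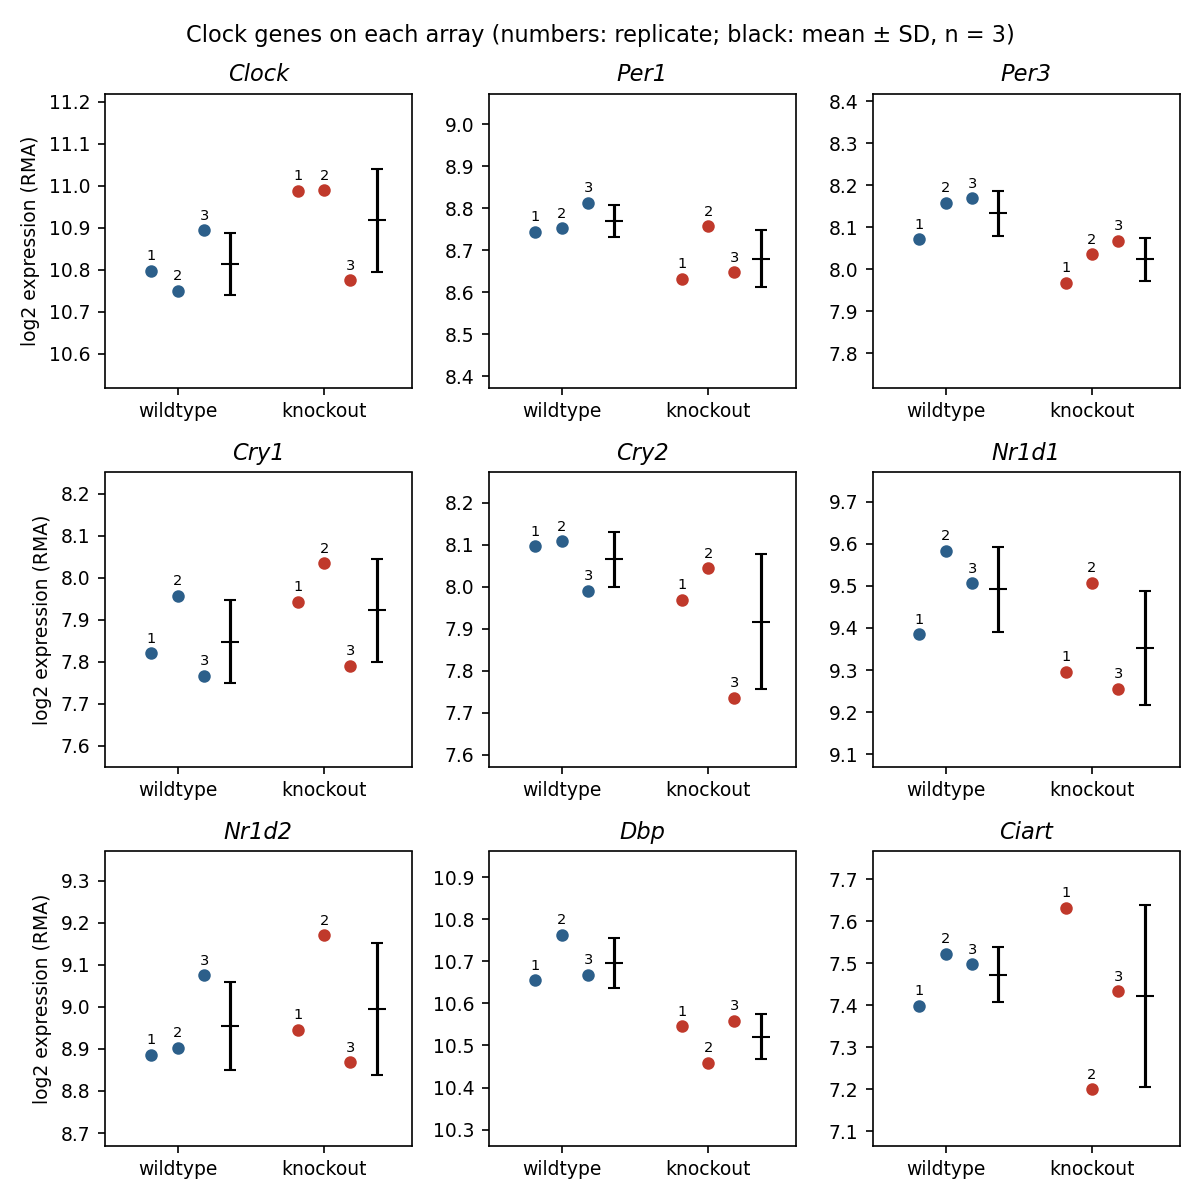
Log2 expression (y axis, RMA values) of the 9 measured clock genes on each array, 1 panel a gene with the same height of 0.7 log2 units; points are arrays with their replicate number, and black marks show the mean ± SD of 3 arrays. Dbp and Per3 have all knockout points below the wildtype points, and the other 7 genes overlap.

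The spread within groups was close to that of other genes. The SD within groups, pooled over both genotypes, had a median of 0.111 log2 units over the 9 clock genes and 0.116 over all genes tested. Per3 (0.052), Per1 (0.055) and Dbp (0.057) were among the least variable genes, at percentiles 7.5, 8.6 and 9.6. Ciart was the most variable of the 9, at percentile 73.4. Over all 6 arrays the highest and lowest values of a clock gene differed by between 1.13-fold (Per1) and 1.35-fold (Ciart).

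Arrays within a group took a repeated order for several of the genes. Among the knockout arrays, knockout 2 was the highest for 6 of 9 clock genes (Clock, Per1, Cry1, Cry2, Nr1d1 and Nr1d2) and the lowest for Dbp and Ciart. Knockout 3 was the lowest for 5 of the 9. Among the wildtype arrays, wildtype 1 was the lowest for 6 of 9 and the highest for none. Knockout 2 and wildtype 1 are the arrays rich in lens RNA, and they stood at opposite ends of their groups for 3 of the 9, Per1, Nr1d1 and Nr1d2. For Dbp and Ciart both were the lowest of their group. The part of lens RNA in this order was not tested.

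**Figure D3:**
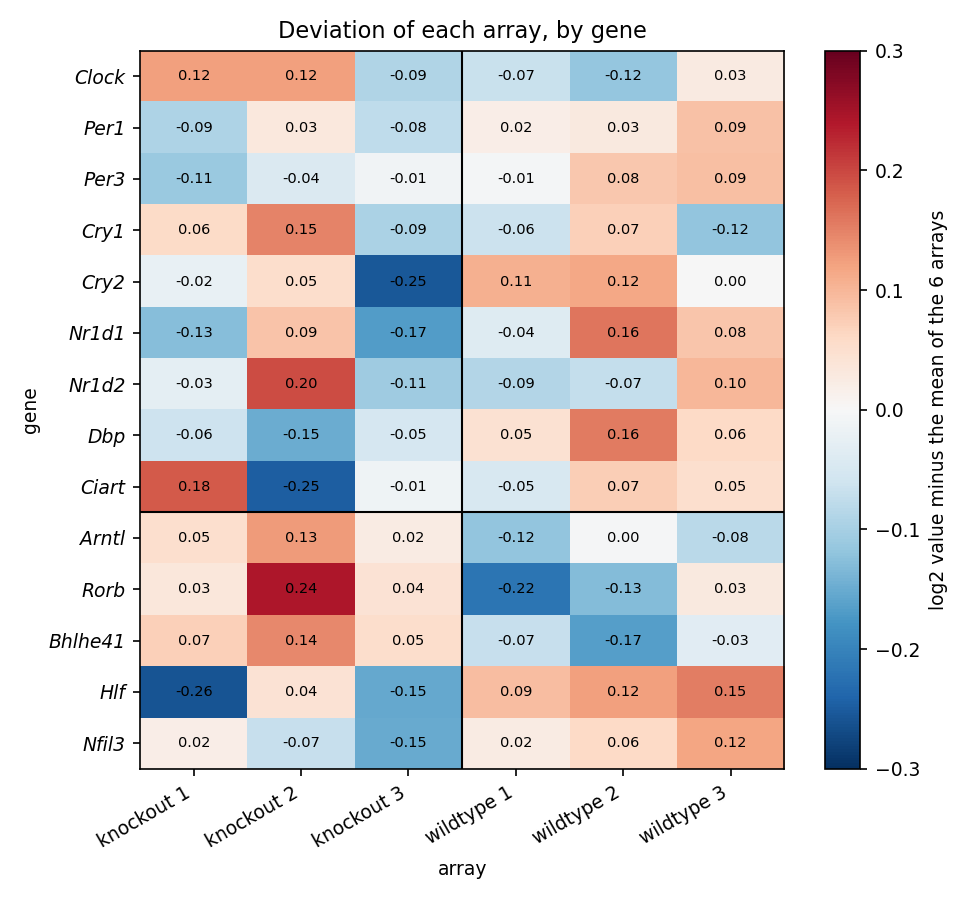
Log2 value minus the mean of the 6 arrays (colour and number in each cell) for the 9 clock genes, above the horizontal line, and for 5 other clock genes, chosen because their groups did not overlap; columns are arrays, with the vertical line between knockout and wildtype. Dbp ranged from -0.15 on knockout 2 to 0.16 on wildtype 2, and Bhlhe41 ran the other way, from 0.14 to -0.17 on the same arrays.

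The wider clock machinery was read from 3 lists, of which 19 of 22 genes were tested; the other 3 are not analysed here. None of the 19 was called in limma's test, beside 0.826% of all genes, and 2 had an unadjusted p under 0.05, beside 13.5% of all genes. Of the 19, 14 had changes below 0 and the median was -0.07, against 0.003 over all genes tested. Groups did not overlap for 5 of the 19, with 2 lower and 3 higher in knockout, beside 20.3% of all genes.

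Arntl encodes BMAL1, the partner of CLOCK. Its log2 values were 10.06, 10.14 and 10.03 in knockout and 9.89, 10.01 and 9.93 in wildtype, so that every knockout array was above every wildtype array. The change was 0.14 (SE 0.075, interval -0.04 to 0.31, adjusted p = 0.479 by limma). Arntl and Dbp had changes of opposite sign, neither of which passed the threshold. Both signs also occurred among the other clock genes, and a part of the time of day was not tested. Arntl2 and Npas2, relatives of Arntl and Clock, had changes of -0.13 and -0.18 (adjusted p 0.584 and 0.568 by limma).

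Bhlhe41 and Bhlhe40 encode DEC2 and DEC1, repressors that compete for E-boxes. Bhlhe41 had log2 values of 8.86, 8.93 and 8.84 in knockout and of 8.72, 8.62 and 8.75 in wildtype, wholly above in knockout (change 0.18, SE 0.076, adjusted p = 0.359 by limma). Bhlhe40 had a change of -0.16 with overlapping groups (adjusted p = 0.566). Rorb and Rora encode receptors that activate Arntl through the sites that the REV-ERBs also bind, and Rorb is also needed for photoreceptor development. Rorb had log2 values of 11.63, 11.84 and 11.64 in knockout and of 11.38, 11.47 and 11.63 in wildtype (change 0.21, SE 0.097, adjusted p = 0.389 by limma), and its lowest knockout value, 11.6323, was just above its highest wildtype value, 11.6292. Rora had a change of 0.04.

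Hlf and Tef are relatives of Dbp, and Nfil3 encodes a repressor that acts on the same D-boxes. Hlf had log2 values of 7.73, 8.03 and 7.83 in knockout and of 8.08, 8.11 and 8.14 in wildtype, wholly below in knockout. Its change of -0.25 (SE 0.092, interval -0.46 to -0.03, adjusted p = 0.302 by limma) was the largest in size of the 28 clock genes tested here, the 9 and these 19. Nfil3 had a change of -0.13 with groups that did not overlap (interval -0.31 to 0.05). Its highest knockout value, 6.5448, was just under its lowest wildtype value, 6.5507. Tef had a change of -0.07 on both of its probe sets (-0.069 and -0.075).

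Genes that act on clock proteins had small changes. The kinase genes Csnk1e, Csnk1a1 and Gsk3b, whose products phosphorylate PER or CRY proteins, had changes of -0.07, -0.03 and -0.02. Fbxl21, Btrc and Fbxw11, which encode F-box proteins of ubiquitin ligases, had changes of -0.11, -0.01 and -0.07. The change was -0.14 for Usp2, a deubiquitinase gene, -0.11 for Timeless and 0.06 for Nono. The adjusted p of these 9 genes ran from 0.558 to 0.978 in limma's test.

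**Figure D4:**
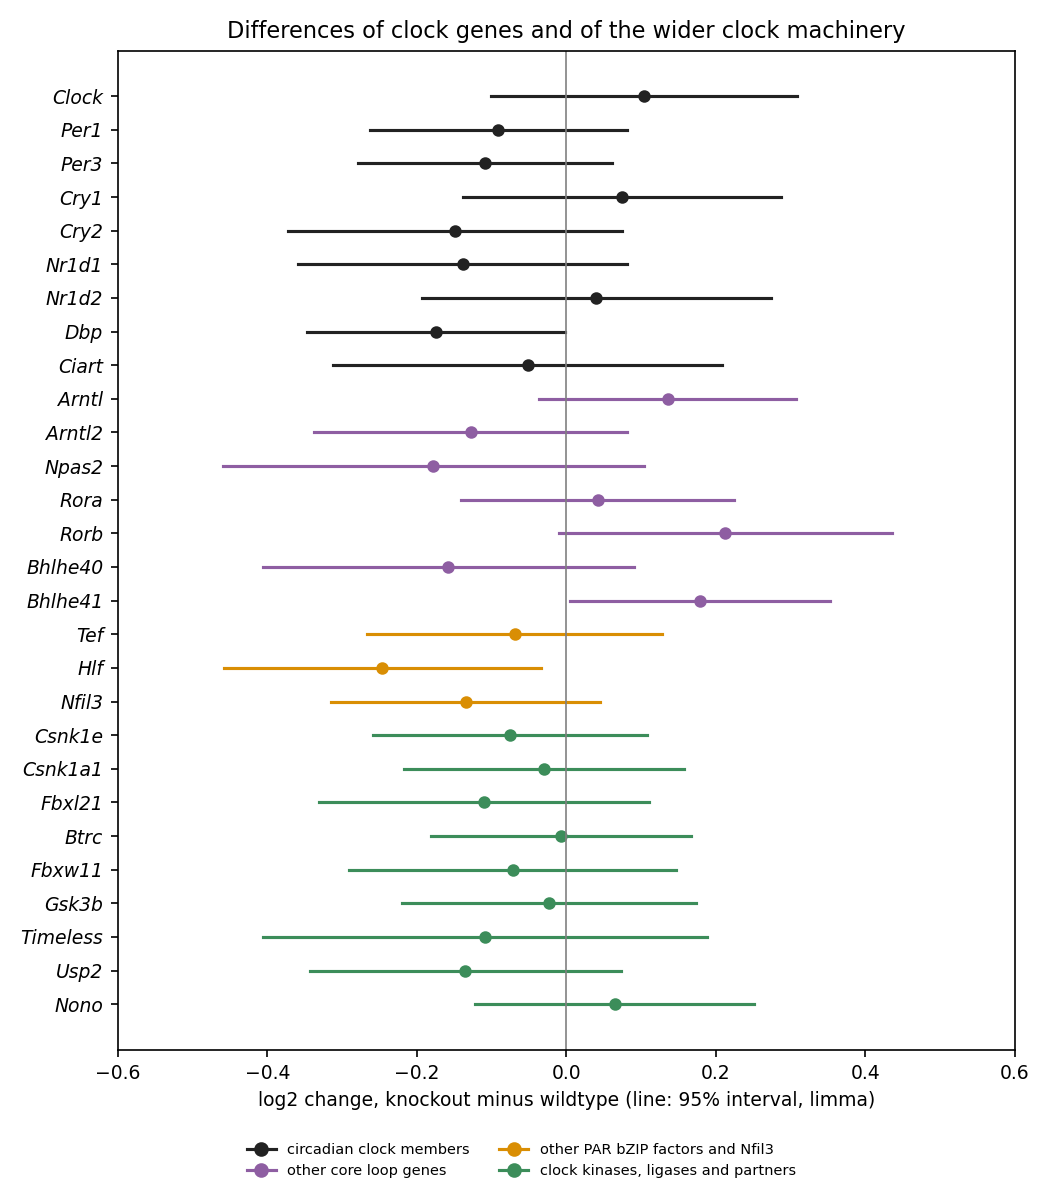
Log2 change, knockout minus wildtype (x axis; points), with limma's 95% interval (lines) for the 9 clock genes and the 19 tested genes of 3 lists of the clock machinery (y axis, coloured by list). Of the 28 intervals only those of Dbp, Hlf and Bhlhe41 leave out 0, and no change passed the adjusted threshold.

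A list of inputs and outputs of the retinal rhythm (8 of 9 tested, Opn5 being too dim) had no called member either. The share called over all genes was 0.826%. Th, the rate-limiting enzyme of dopamine synthesis and a marker of a class of amacrine cells, had a change of -0.19 (SE 0.074, adjusted p = 0.309 by limma) with all knockout values below the wildtype values. Drd4, the dopamine receptor of photoreceptors, whose mRNA is known to be rhythmic, had log2 values of 9.90, 9.58 and 10.14 in knockout and of 9.50, 9.62 and 9.61 in wildtype. Knockout 1 and 3 were above all wildtype arrays and knockout 2 was not (change 0.30, SE 0.13, adjusted p = 0.381). The changes of Adcyap1, which encodes the peptide PACAP, and of the melanopsin gene Opn4 were 0.14 and -0.12.

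Immediate early genes, which respond to light and activity as Per1 does, had changes of both signs. None of 14 was called, beside 0.826% of all genes, and 7 were above and 7 below 0, with a median of -0.004. Groups did not overlap for 4 of the 14, beside 20.3% of all genes, and these 4 also had the smallest p of the list. Npas4 (0.28), Jun (0.18) and Ier2 (0.18) were higher on every knockout array than on any wildtype array, and Fos (-0.24) was lower. Their adjusted p-values ran from 0.278 to 0.421 in limma's test.

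Among the genes tested, with predicted or unnamed loci and small RNAs left out, 5 followed Dbp most closely over the 6 arrays. They were Rlbp1, a retinaldehyde-binding protein gene of Muller glia and pigment epithelium (Pearson's r = 0.994), Nptx2, a neuronal pentraxin gene (0.992), Pgbd5 (0.991), Plch2 (0.988) and Dram1 (0.986). These values are the highest among the named genes that remain of 15618, and are given as a description, without a test. All 5 had knockout values wholly below the wildtype values, as 9.58% of all genes did. They were picked for following Dbp, which itself has that order, so this count was largely fixed by the choice. Their changes lay between -0.32 for Nptx2 and -0.14 for Dram1. None was called, beside 0.826% of all genes (adjusted p from 0.145 to 0.466 by limma). Among the clock genes, Usp2 (r = 0.78) and Per3 (0.77) came nearest to Dbp, and Bhlhe41 (-0.99), Rorb (-0.80), Arntl (-0.71) and Clock (-0.71) ran against it. Ranked from the highest r among 15618 genes, Usp2 stood only at 909 and Per3 at 1016. Bhlhe41 stood at 15607, near the lowest, while Rorb stood at 14399, Clock at 13640 and Arntl at 13625. These correlations take in the difference between the genotypes, which these arrays share.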

How the data were processed

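The authors deposited 1 log2 value for each probe set and array, computed with RMA (background correction, quantile normalization and summary of probes), per the submitters' processing notes. No source used here states the software, its version or the genome build. Quantile normalization hides a change in total RNA. Array medians were 5.57 to 5.64, and arrays correlated at 0.975 to 0.993 across genes. Probe sets at log2 5 or more on at least 3 of 6 arrays were tested, the brightest for each gene, by moderated linear models of genotype alone (limma 3.58.1, R 4.3.3, 2-sided, Benjamini-Hochberg over 15619 genes). The median SE was 0.095. The procedure was tested on simulated data with planted changes larger than that of any clock gene here. That test does not show whether changes as small as theirs would be called. Gene symbols come from the platform annotation. The clock genes and lists were chosen with earlier results of these data known; named were all 9 measured genes, Atrx, the machinery lists whole, the 4 genes with the smallest p of the light and immediate early lists, and the 5 nearest to Dbp, without predicted loci. A list of red blood cell markers had no tested member. Microglia (8 tested), endothelial and pericyte (7), Muller glia (7) and ganglion cell (8) lists had no called member. The cone list had 1 called of 8 tested, higher in knockout, beside 0.826% of all genes. Figures were drawn with matplotlib 3.10.9.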

Additional observations from a re-analysis of the deposited data

How the results depend on the processing

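None of the 9 clock genes was called under any of 17 alternatives, and their lowest adjusted p by limma was 0.222. Nor was any of the 41 genes tested in the 5 pathway lists, under the alternatives in which it was tested (30 of the 41 passed a floor of log2 6). These lists include the light, rhythm and immediate early genes. Leaving out 1 array in turn likewise gave 0 calls among the 9 and 0 among the pathway genes. The signs of 7 of the 9 changes held throughout; with 1 array left out Nr1d2 ran from -0.048 (without knockout 2) to 0.10 and Ciart from -0.16 to 0.060 (without knockout 2), and without both lens-rich arrays they were -0.082 and 0.023. The count over all genes, 129, was 74 with no filter on dim probe sets and also 74 with every probe set tested, 209 with a floor of log2 6, 282 with an intensity trend and robust spread, 36 without both lens-rich arrays, 1 with no pooled spread, and 25 to 141 with 1 array left out; the cause was not tested. With the replicate number as a block it was 68. Same-numbered arrays did not deviate together (correlations -0.274, -0.381 and -0.058), so the numbers were not taken as pairs. The highest correlation of a knockout with a wildtype array, 0.387, joined knockout 2 and wildtype 1, the lens-rich arrays. With 3 arrays a group this check cannot show whether mice were paired by litter. Precision is set by 3 arrays a group, with a median 95% interval of 0.217 to each side.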
